A study of Mus musculus with 40 samples.

Results

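Ifit1, Isg15, Ifih1, Ddx58, Zbp1 and Ifi213, a set of 6 interferon-inducible mouse genes, were followed through a melanoma passaged serially in mice. Poly(A) RNA was read at annotated repeat copies, and each gene is represented by the summed signal of the repeat copies lying wholly within a window around it. The 6 windows hold 130 of the 835636 copies in the deposited table, of which 20 averaged a signal of 5 or more. The genes were selected on their measured values in these same libraries, so their levels and differences are described and carry no test. Tests are given for other genes of the interferon pathway. All libraries come from YUMM1.7, an established mouse melanoma line of C57BL/6 origin, or from cells grown out of its tumours. There are 40 libraries in 11 groups. Untreated YUMM1.7 was sampled as 3 cultures. The tumour passages follow in the order of the labels: F0 and F1 with 4 tumours each, F2 and N2.1 with 5 each, N2.2 and N2.3 with 3 each, Balb/c-1 with 4, Balb/c-2 with 3 and CBA with 3. The 3 Balb/c-2 tumours were sequenced a second time, and these repeats form the group Balb/c-2 rep2. Tumours of a passage are lettered, parental cultures are numbered, and values below follow the order of these letters or numbers. Tumours were dissociated and their cells cultured for 1 to 3 passages before RNA was taken. No drug or genetic change distinguishes the groups in the labels. Balb/c and CBA are inbred strain names, while the sources used here do not say what N2 means or give the age and sex of the mice. Every passage occurs once in the series, so the spread covers tumours, or for the parental line cultures, of a single passage.

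Cells detect viral and misplaced self nucleic acid with sensor proteins, and these drive the production of type I interferon. Secreted interferon acts through its receptor and the kinases JAK1 and TYK2 on transcription factors that bind a promoter element known as the interferon-stimulated response element. The genes switched on in this way include the sensors themselves, so sensors and effectors are usually induced together. Ifih1 encodes MDA5 and Ddx58 encodes RIG-I, both cytosolic sensors of double-stranded RNA that signal through MAVS. Zbp1 encodes a sensor of Z-form nucleic acid that can start necroptosis, and Ifi213 belongs to the mouse Ifi200 family, which includes several DNA sensors. Ifit1 encodes a protein that binds viral RNA lacking a host-type cap, and Isg15 encodes a ubiquitin-like modifier.

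Promoter sequences are shown because the interferon-stimulated response element is the textbook link between these genes. Entries for 5 of the 6 genes were found in RefSeq (GRCm38.p6, 250 bases before to 50 after the start site). Zbp1 was the gene without an entry. The stretches shown lie at chr19:34640765-34640833 (Ifit1, plus strand), chr4:156200855-156200966 (Isg15, minus strand), chr2:62646206-62646243 (Ifih1, minus strand), chr4:40239794-40239905 (Ddx58, minus strand) and chr1:173599316-173599365 (Ifi213, minus strand). They run 5′ to 3′ on the strand of the gene, with capitals marking matches to GAAANNGAAA or to GAAANGAAA on either strand, the second being the same half-site with a spacer shorter by 1 base.
Ifit1: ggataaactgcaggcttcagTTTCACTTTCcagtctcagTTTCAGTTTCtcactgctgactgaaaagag
Isg15: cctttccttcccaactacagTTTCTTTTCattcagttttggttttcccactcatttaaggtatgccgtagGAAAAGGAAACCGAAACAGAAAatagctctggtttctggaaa
Ifih1: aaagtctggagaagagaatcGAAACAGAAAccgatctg
Ddx58: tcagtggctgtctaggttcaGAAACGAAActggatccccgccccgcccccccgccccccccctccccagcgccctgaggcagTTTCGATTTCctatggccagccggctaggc
Ifi213: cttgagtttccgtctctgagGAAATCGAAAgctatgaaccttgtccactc
The Ifit1 stretch holds 2 matches to GAAANNGAAA, both on the opposite strand and centred upstream of the start site. The Isg15 stretch holds 3 overlapping matches to GAAANNGAAA that read as 1 run in capitals, and a separate match to GAAANGAAA. The single match of Ifih1 lies downstream of the start site, within its first 50 bases. Ddx58 has 1 match to each motif, and Ifi213 has 1 match to GAAANNGAAA. Among 32851 promoters of this length, 3.44% hold GAAANNGAAA on either strand and 3.17% hold GAAANGAAA. None of the 5 stretches came from a promoter with a match to TTCNNNGAA, a motif in 8.3% of promoters. These matches are letters in a window and no binding was measured.

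The signal of each gene came from a small number of repeat copies overlapping exons of the gene. In Ifit1 (chromosome 19, 34640871 to 34650009, plus strand, mm10), 99.6% of the signal lay in a single MTD copy overlapping the 3′ UTR. In Isg15 (chromosome 4, 156199424 to 156200818, minus strand), an L1MdA_IV copy in the 3′ UTR held 95.9%. The signal of Ifih1 (chromosome 2, 62595798 to 62646255, minus strand) was divided among 3′ UTR copies of MTE2b (57.3%), MLT1E1A (17.9%) and B3 (11.5%). Ddx58 (chromosome 4, 40203773 to 40239828, minus strand) was read mainly at the B1 copies B1_Mur2 (48.0%), B1_Mus2 (22.1%) and B1_Mur3 (20.2%), again in the 3′ UTR. In Zbp1 (chromosome 2, 173206612 to 173218923, minus strand), a B1_Mur2 copy overlapping a coding exon held 54.7% and an L1M2 copy in the 3′ UTR held 33.6%. Ifi213 (chromosome 1, 173566283 to 173599274, minus strand) differed in having no 3′ UTR share. Its main copy was an ERVB2_1-I_MM~RLTR13D2 element overlapping a coding exon (49.9%), followed by IAPEY3_LTR~IAPEy-int (27.0%) and B4A (12.0%), both overlapping a noncoding exon of another annotated transcript. Because copies differ in number and length between genes, levels are compared within a gene and not between genes.

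Separate copies of one gene mostly followed each other across libraries. The Pearson correlation of log2(signal + 1) over 40 libraries was 0.89 to 0.94 among the 3 main copies of Ifih1, 0.95 to 0.98 among those of Ddx58, and 0.93 between both main copies of Zbp1. In Ifi213 the ERVB2_1-I_MM~RLTR13D2 and IAPEY3_LTR~IAPEy-int copies correlated at 0.93, whereas B4A correlated with them at 0.48 and 0.63. Copies of a gene share their libraries and may share its transcript, so these values describe the measurement. Whether the signal at ERVB2_1-I_MM~RLTR13D2 and IAPEY3_LTR~IAPEy-int comes from Ifi213 mRNA or from transcripts of the elements was not tested. Reads at one copy of a repeat family can also come from related copies elsewhere, and the sources used here do not say how such reads were assigned.

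Depth was similar across the series, with 1280522 to 2976730 recovered reads in repeat copies per library and a signal of 0.659 to 1.51 for 1 read. Isg15 was at 0, 1 and 3 reads in the parental cultures. The labels give melanoma as the cell type. The summed signal of 8 melanocytic marker genes with a copy was at most 30.3 in any library. Tyr, Dct, Sox10 and Slc45a2 were at 0 in every library of most groups. Mitf had group means of 2.9 (N2.1) to 13.3 (Balb/c-2). Group means of Pmel, Kit and Mlana reached at most 4.65, 3.49 and 2.99. Markers were read only at repeat copies in each gene, so a low sum need not mean low expression. The 11 leukocyte markers with a copy summed to 0 to 27.6, with Cd3e at 0 in most groups. Fibroblast markers summed to 885 to 3674 and were at 1752 to 3065 in the parental cultures, where Pdgfra (mean 1275) and Pdgfrb (mean 908) made up most of the sum and Col1a1 and Thy1 were at 0. Endothelial markers summed to 67.7 to 174, and in the parental cultures Eng (mean 76.7) made up most of the sum, with Cdh5 and Emcn at a mean of 0.34 each. In these bulk samples, fewer cells of a type and less RNA per cell cannot be told apart.

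The dominant pattern was a low level in the parental cultures and early tumours, the highest mean levels in the Balb/c passages, and a low level again in CBA. The means of Isg15, Ifih1 and Ddx58 were higher in all 3 N2 passages than in F2, whereas those of Ifit1, Zbp1 and Ifi213 were lower in N2.2 than in F2. For all 6 genes the YUMM1.7 cultures had the lowest group mean of the 11. Balb/c-2 had the highest group mean for Ifit1, Ifih1, Ddx58, Zbp1 and Ifi213, and Balb/c-1 had it for Isg15. Within nearly every group tumours spread widely, and neighbouring groups in the order of means overlapped in range, apart from Isg15 in Balb/c-2 against its repeat libraries.

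**Figure D1:**
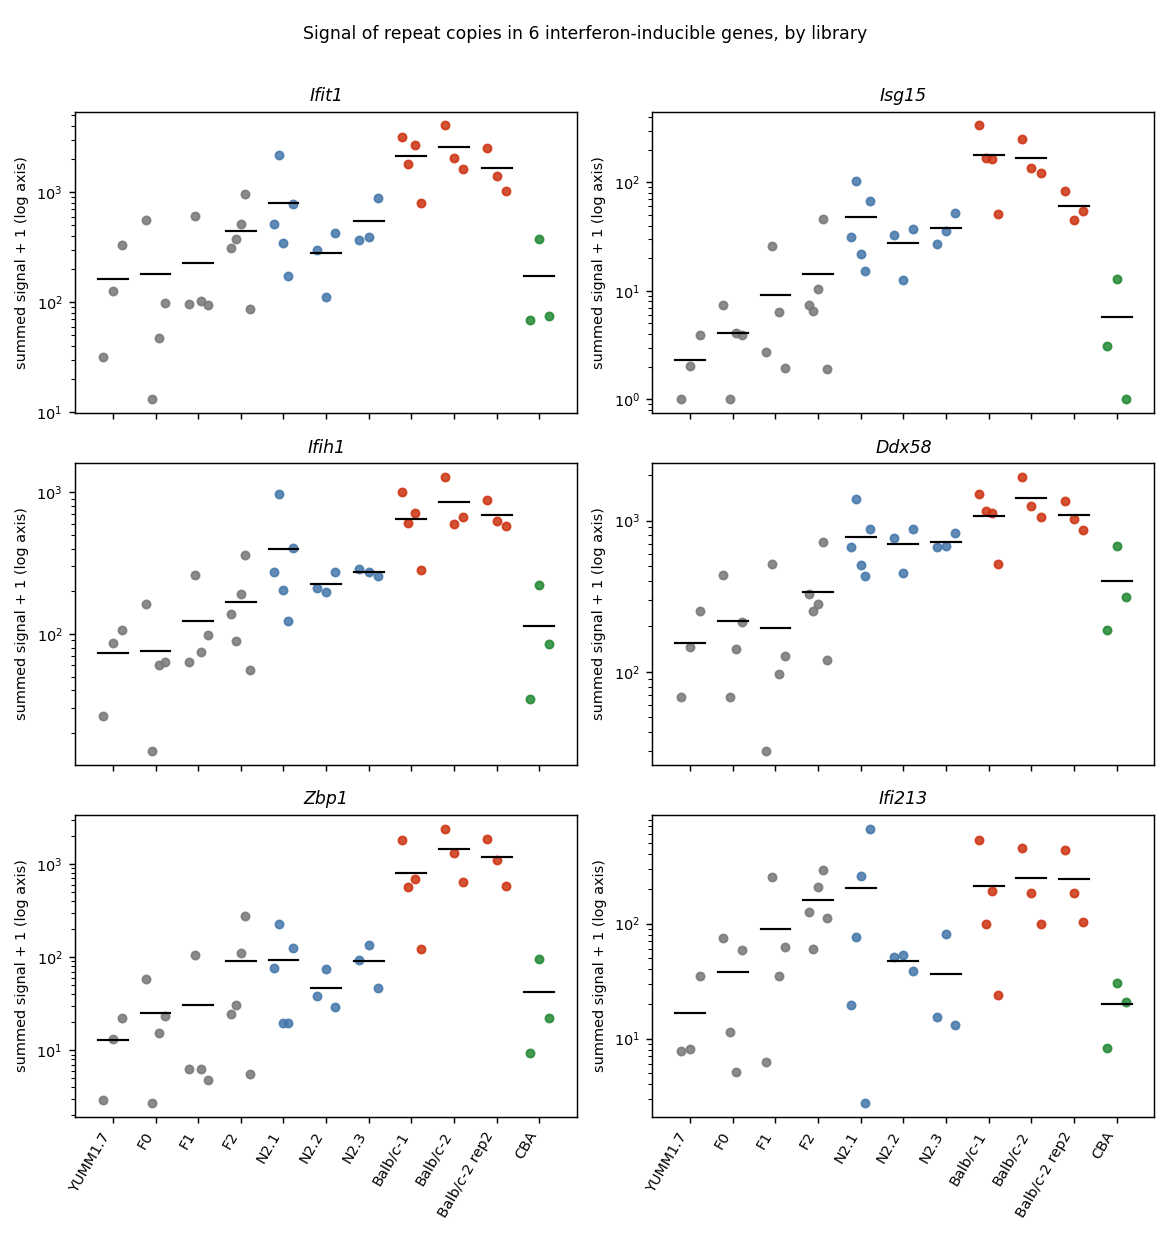
Summed signal of repeat copies in each gene, plus 1, on a log axis, for every library of the 11 groups. Points are libraries in the order of their letters or numbers, black bars are group means plus 1, and colours mark the YUMM1.7 to F2 groups (grey), N2 groups (blue), Balb/c groups (red) and CBA (green). All 6 genes are higher in each Balb/c-2 rep2 library than in each CBA library, and single tumours such as F1 B and F2 D stand above the others of their passage.

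Among the RNA sensors, the signal of Ifih1 was 25.2, 84.8 and 106 in the YUMM1.7 cultures, 161, 13.9, 59.2 and 62.8 in F0 and 62.4, 259, 73.8 and 96.8 in F1. It was 138, 88.5, 189.7, 361 and 54.5 in F2, 273, 969, 204, 122 and 406 in N2.1, 209, 197 and 273 in N2.2 and 286, 271 and 257 in N2.3. It then reached 1009.9, 602, 711 and 283 in Balb/c-1 and 1282, 601 and 671 in Balb/c-2, with 879.6, 626 and 581 in the repeat libraries and 33.5, 219 and 84.4 in CBA. In N2.1 tumour B alone approached the highest Balb/c values, and the 5 tumours spanned 7.95-fold. The 3 N2.3 tumours were tightly grouped, at a mean of 271 ± 14.1 (SD, n = 3), above all of the parental cultures. Tumour D of Balb/c-1 stayed near the N2.3 level while its 3 sister tumours were all above 600, so the Balb/c-1 and N2.3 ranges overlapped, and the mean was 2.4-fold higher in Balb/c-1.

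Ddx58, the other RNA sensor, had a signal of 67.7, 145 and 251 in YUMM1.7, 439, 67.7, 141 and 213 in F0, 29.0, 519, 96.3 and 127 in F1 and 324, 250.3, 278, 716 and 119 in F2. The N2 passages gave 666, 1384, 511, 428 and 872 in N2.1, 761, 447 and 874 in N2.2 and 663, 673 and 829.1 in N2.3. Balb/c-1 gave 1494, 1159, 1113 and 517, Balb/c-2 gave 1937, 1239 and 1051, its repeat libraries 1344, 1025 and 871, and CBA 188, 682 and 313. Ddx58 had the smallest ratio of means among the 6 genes both in the step from N2.3 to Balb/c-1 and in that to CBA. Its mean was 2.29-fold higher in N2.1 than in F2, 1.48-fold higher in Balb/c-1 than in N2.3, and 2.74-fold lower in CBA than in Balb/c-2 rep2. CBA tumour B, at 682, lay inside the N2 range.

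Zbp1 had the largest ratio of means among the 6 genes from N2.3 to Balb/c-1 and again in CBA. Its signal was 1.94, 12.1 and 21.2 in YUMM1.7, 57.6, 1.74, 14.3 and 22.2 in F0, 5.27, 104, 5.35 and 3.76 in F1 and 23.7, 29.5, 111, 278 and 4.54 in F2. It was 74.7, 226, 18.7, 18.6 and 125 in N2.1, 36.9, 72.8 and 28.2 in N2.2 and 93.2, 134 and 45.4 in N2.3. Values of 1791, 563, 687 and 121 followed in Balb/c-1, 2383, 1298 and 633 in Balb/c-2, 1869.6, 1091 and 576 in its repeat libraries and 8.37, 95.6 and 21.1 in CBA. Of the 10 Balb/c libraries, which count the 3 Balb/c-2 tumours both in their first and in their repeat library, 9 were above 278, the highest value among the 30 other libraries, and the tenth was Balb/c-1 D. The mean was 8.7-fold higher in Balb/c-1 than in N2.3 and 28.3-fold lower in CBA than in Balb/c-2 rep2. The 3′ UTR copy and the coding-exon copy shared this course, with mean signals 11-fold and 7.16-fold higher in Balb/c-1 than in N2.3, and 38.6-fold and 26.2-fold lower in CBA than in the repeat libraries.

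The summed signal of Ifi213 had the lowest correlations with the other genes, and its copies differed among themselves. Its signal was 6.77, 7.07 and 33.8 in YUMM1.7, 74.0, 10.4, 4.08 and 58.0 in F0, 5.27, 254, 34.2 and 61.1 in F1 and 126, 59.0, 207, 289.7 and 111 in F2. It was 18.5, 75.7, 257, 1.77 and 667 in N2.1, 50.1, 51.9 and 37.6 in N2.2 and 14.4, 79.7 and 12.1 in N2.3. It was 533, 98.9, 191 and 22.9 in Balb/c-1, 457, 184 and 98.5 in Balb/c-2, 439, 183 and 103 in the repeat libraries and 7.32, 29.3 and 19.9 in CBA. The 5 N2.1 tumours spread 377-fold, from 1.77 in tumour D to 667 in tumour E, and tumour E had the highest value of all 40 libraries. The N2.1 mean was 1.29-fold above that of F2, whereas the difference of mean log2(signal + 1) was -1.24 ± 1.01 (SE), so the direction depended on the scale. The mean signal of its B4A copy was 7.77 in F2, 5.18 in N2.1, 1.304 in N2.3, 43.7 in Balb/c-1, 60.5 in the repeat libraries and 5.06 in CBA. From N2.3 to Balb/c-1 the means were 3.08-fold higher at ERVB2_1-I_MM~RLTR13D2, 7.01-fold at IAPEY3_LTR~IAPEy-int and 33.5-fold at B4A, where the N2.3 tumours were at 0 to 3.15, and in CBA they were 11.3-fold, 15.3-fold and 12-fold lower than in the repeat libraries. In the summed signal, the N2.2 and N2.3 tumours were all below 80, under the F2 mean of 158 ± 90.5 (SD, n = 5).

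Of the effectors, Ifit1 had a signal of 31.0, 126 and 328 in YUMM1.7, 561, 12.1, 46.0 and 98.6 in F0, 94.9, 613, 102 and 93.1 in F1 and 309.9, 374, 515, 956 and 85.4 in F2. It was 515, 2194, 345, 174 and 776 in N2.1, 300.4, 110.4 and 424 in N2.2 and 366, 393 and 881 in N2.3. It was 3176, 1799.9, 2716 and 802 in Balb/c-1, 4072, 2070.3 and 1642 in Balb/c-2, 2527, 1418 and 1036 in its repeat libraries and 68.0, 378 and 73.9 in CBA. Single tumours carried the early group means. F0 A and F1 B were each far above their sister tumours, and F0 spanned 46.2-fold. The mean was 3.89-fold higher in Balb/c-1 than in N2.3, with overlapping ranges because Balb/c-1 D was below N2.3 C, and 9.58-fold lower in CBA than in Balb/c-2 rep2, where the ranges were apart.

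Isg15, the other effector, had a signal of 0, 1.01 and 2.90 in YUMM1.7, 6.40, 0, 3.06 and 2.90 in F0, 1.76, 24.8, 5.35 and 0.94 in F1 and 6.38, 5.47, 9.48, 44.9 and 0.91 in F2. It was 30.2, 101, 20.8, 14.1 and 67.0 in N2.1, 31.6, 11.7 and 36.6 in N2.2 and 26.3, 34.7 and 50.7 in N2.3. It was 335, 166, 163 and 49.9 in Balb/c-1, 250.1, 135 and 120.2 in Balb/c-2, 82.5, 44.2 and 52.9 in the repeat libraries and 2.09, 12.0 and 0 in CBA. The 3 libraries at 0 were YUMM1.7 culture 1, F0 B and CBA C. A count of 0 allows a signal of up to 2.90, 2.60 and 3.52 in them, taking 3 reads as the limit, and this covers counting error only. Without tumour D of F2, at 44.9, the F2 tumours were no higher than 9.48, while all N2.1 tumours were at 14.1 or more. The mean was 3.47-fold higher in N2.1 than in F2, 4.8-fold higher in Balb/c-1 than in N2.3 and 12.8-fold lower in CBA than in Balb/c-2 rep2.

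The 6 genes tended to be high in the same tumours. One library was the highest of its group for all 6 genes in YUMM1.7 (culture 3), F0 (A), F1 (B), F2 (D), Balb/c-1 (A), Balb/c-2 (A), Balb/c-2 rep2 (A) and CBA (B). In N2.1 tumour B was highest for 5 of the genes and tumour E for Ifi213. Balb/c-1 D, N2.1 D and YUMM1.7 culture 1 were the lowest of their groups for all 6. In N2.2 and N2.3 no library was highest for more than 4 of them. Over 40 libraries the Pearson correlations of log2(signal + 1) between the genes ranged from 0.60 to 0.96 over 15 pairs. Without Ifi213 the 10 remaining pairs ranged from 0.88 to 0.96, and after each group mean had been subtracted they ranged from 0.84 to 0.92. Leaving out the 10 Balb/c libraries gave 0.81 to 0.92 for these 10 pairs over 30 libraries. The 5 pairs with Ifi213 were at 0.60 to 0.69 over all 40 libraries. They were at 0.53 to 0.64 after subtraction of group means and at 0.43 to 0.55 without the Balb/c libraries. The points share library, depth and scaling, and the repeat libraries enter as points of their own, and the values are descriptions.

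Of 8216 other host genes with a mean signal of at least 20, the 8 that followed the mean standardised level of the 6 genes most closely over 40 libraries were all on the lists of interferon genes. They included Usp18 (Pearson correlation 0.97), a protease that removes ISG15 from proteins, Iigp1 (0.96) and Irgm1 (0.95), which are interferon-inducible GTPases, and Dtx3l (0.96), a ubiquitin ligase. Xaf1 (0.96), Slfn2 (0.96) and Oasl2 (0.95) were also among the 8. Of the 30 most similar genes, 29 were on the lists. The median correlation was 0.87 over the 87 list genes with sufficient signal, and 0.03 over all 8216 genes. Both the 6 genes and the lists were chosen with earlier results of these data known, so this overlap is a description and not independent evidence. For the effectors the closest genes were Iigp1 (0.95) and Irgm1 (0.94) for Ifit1, and Irgm1 and Eif2ak2 (both 0.93) for Isg15. For the sensors they were Usp18 (0.96) and Dtx3l (0.95) for Ifih1, Irf9 (0.98) and Xaf1 (0.97) for Ddx58, and Dtx3l and Trim12c (both 0.96) for Zbp1. The genes closest to Ifi213 were the guanylate-binding protein genes Gbp7 (0.78) and Gbp5 (0.77).

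**Figure D2:**
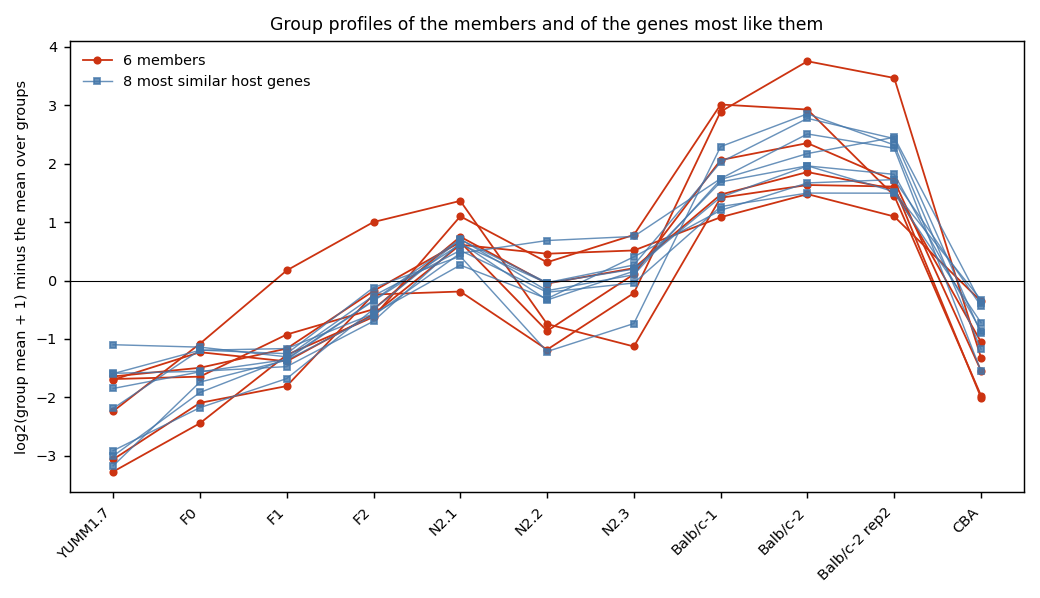
Group profiles as log2(group mean signal + 1) minus its mean over the 11 groups, for the 6 genes (red circles) and the 8 most similar host genes (blue squares). The lines all lie below their own mean in the YUMM1.7 and CBA groups and above it in the 3 Balb/c groups. The red line that is highest in F1, F2 and N2.1 and lowest in N2.3 is Ifi213.

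To place the 6 genes in their pathway, 145 further interferon genes were listed by role, of which 121 had a repeat copy in the gene and 107 passed a mean signal of 5. The lists were drawn up with earlier results of these data known. None of the 9 listed interferon ligand genes had a copy, so the ligands were not measured. Host genes were tested with limma on log2(signal + 1), with Benjamini-Hochberg adjustment over all 10643 host genes tested and genes with an adjusted p below 0.05 counted as called. The deposited scaling matters for the bulk of genes. With TMM factors in its place the median log2 fold change of all host genes went from 0.19 to 0.07 in F0 against YUMM1.7, from -0.21 to -0.10 in F2 against F0, from 0.34 to 0.14 in N2.1 against F2, from 0.36 to 0.24 in CBA against Balb/c-2 rep2 and from -0.15 to 0.00 in Balb/c-1 against N2.3.

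In the first steps limma called no interferon list gene with all libraries included. Between F0 and YUMM1.7, 0 of 107 list genes were called by limma, edgeR or DESeq2, against a background of 0.0188% of host genes, and 2 list genes had an unadjusted p under 0.05. The median log2 fold change was 0.05 over the list. In F2 against F0, limma and edgeR called 0 list genes (background 0.0658%) and DESeq2 called 5, all higher in F2, while 22 had an unadjusted p under 0.05. The list median was 0.76 there and 88 of the 107 genes were higher in F2, against a median of -0.21 for all host genes. Without F2 E the limma count was 6 (5 higher), and without F0 A it was 1. F2 E and F0 A are respectively the F2 tumour lowest for 5 of the 6 genes and the F0 tumour highest for all 6. The group means of the 6 genes were 1.57-fold (Ddx58) to 4.35-fold (Isg15) higher in F2 than in F0, with overlapping ranges. Of all host genes, 3.49% had ranges apart in either direction.

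The step from F2 to N2.1 was the first with many calls, led by the 2′-5′-oligoadenylate synthetases, which sense double-stranded RNA and activate RNase L. Of the 107 list genes 27 were called (25.2%), 23 higher and 4 lower in N2.1, beside 24.6% of all host genes, so the share was near the background. The list median was 0.75, against 0.34 for all host genes. Oas1g rose by a log2 fold change of 4.06 ± 0.78 (SE, limma adjusted p = 0.00040), from a mean signal of 16.1 ± 24.6 (SD, n = 5) to 162 ± 121 (SD, n = 5). Oas1a rose by 3.84 ± 1.06 (limma adjusted p = 0.0082), Oas2 by 3.36 ± 1.25 (limma adjusted p = 0.046) and Oas3 by 2.80 ± 1.03 (limma adjusted p = 0.043). Oas1a and Oas1g are close paralogues, as are the Ifi200 and Schlafen genes named below, so reads may be split between relatives. The RNA sensors and adaptors had 7 higher and 1 lower of 16, the DNA sensors 2 higher and 1 lower of 13, receptors and signalling 2 higher and 2 lower of 17, the effectors 9 higher of 50, and antigen presentation 3 higher of 11. The 4 lower genes were Aim2, a DNA sensor of the Ifi200 family (-2.81 ± 0.89, limma adjusted p = 0.020), Mavs, the adaptor through which MDA5 and RIG-I signal (-0.91 ± 0.28, limma adjusted p = 0.016), the receptor subunit Ifnar1 (-0.57 ± 0.13, limma adjusted p = 0.0026) and the kinase Tyk2 (-0.50 ± 0.14, limma adjusted p = 0.010).

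This count depended on the scaling and on single tumours. With TMM factors 12 list genes were called (8 higher and 4 lower), beside 1093 higher and 660 lower among all host genes in place of 2231 and 382. Copies overlapping exons alone gave 10, edgeR 9 and DESeq2 8. Leaving out F2 B gave 11 calls and leaving out N2.1 B or N2.1 E gave 16 each. Of the named genes, Oas1g and Ifnar1 were called in all 10 fits that left out a library and by edgeR and DESeq2. Oas2 and Oas3 were not called with TMM factors, by edgeR or by DESeq2, and were lost without F2 B (adjusted p 0.21 and 0.12), F2 E, N2.1 A, N2.1 B or N2.1 E, Oas3 also without F2 A. Oas1a was called in all 10 fits but not by edgeR (adjusted p = 0.053) or DESeq2 (adjusted p = 0.20). Aim2 was lost without F2 B or N2.1 C (adjusted p = 0.098 for the latter) and missed the threshold in edgeR (adjusted p = 0.051). Mavs was lost without N2.1 C and Tyk2 without F2 B.

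Between N2.1 and N2.3 few list genes were called. In N2.3 against N2.1, 3 of 107 list genes were called (2.8%), beside 3.22% of all host genes, and the list median was -0.08. Aim2 was higher in N2.3 by 3.80 ± 1.02 (SE, limma adjusted p = 0.031), from 30.1 ± 27.5 (SD, n = 5) to 227 ± 61.3 (SD, n = 3). Slfn5 was higher by 3.61 ± 0.96 (limma adjusted p = 0.027) and Slfn9 lower by 0.98 on the log2 scale (SE 0.29, limma adjusted p = 0.049). Slfn5 and Slfn9 belong to the interferon-inducible Schlafen family. No list gene was called without N2.3 A or without N2.3 B, and 1 was called without N2.1 C, N2.1 D, N2.1 E or N2.3 C. Aim2 was lost without N2.1 C, N2.1 D or any N2.3 tumour, Slfn5 without N2.1 D, N2.1 E or any N2.3 tumour, and Slfn9 without N2.1 B, N2.1 C, N2.1 E or any N2.3 tumour and also with TMM factors or edgeR. With a pseudocount of 5 there were 5 calls. The 6 genes differed between these groups by log2 values of -1.22 (Ifi213) to 0.46 (Zbp1), with overlapping ranges. Of all host genes, 11.8% had ranges apart in either direction.

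From N2.3 to Balb/c-1 most effector genes had positive fold changes, and few were called. In Balb/c-1 against N2.3, 10 of 107 list genes were called (9.35%), 9 higher and 1 lower, beside 6.52% of all host genes. The list median was 0.74 against -0.15 for all host genes, and 47 of the 50 effectors had a positive log2 fold change, 5 of them called. Gbp5, a guanylate-binding protein, rose by 3.02 ± 0.95 (SE, limma adjusted p = 0.046), from 9.26 ± 0.71 (SD, n = 3) to 109 ± 88.7 (SD, n = 4). Ifi209, of the Ifi200 family, rose by 2.93 ± 0.70 (limma adjusted p = 0.0097), Ifit1bl1 by 2.53 ± 0.75 (limma adjusted p = 0.034) and Trim30d by 2.38 ± 0.69 (limma adjusted p = 0.031). Smaller rises were called for Slfn9 (1.01), Zc3hav1 (0.74), an antiviral protein that binds CpG-rich RNA, and Erap1 (0.64), a peptidase of antigen processing. The transcription factor Irf5 fell by 3.63 on the log2 scale (SE 0.69, limma adjusted p = 0.0014), from 23.6 ± 2.14 (SD, n = 3) to 1.14 ± 0.86 (SD, n = 4). Irf5 was called in all 7 fits that left out a library. Leaving out N2.3 C or Balb/c-1 A gave 3 calls each, Balb/c-1 C 5 and N2.3 A 6. Ifi209 was lost only without N2.3 C among these fits (adjusted p = 0.084) and Erap1 without N2.3 C or Balb/c-1 A. Gbp5, Ifit1bl1 and Slfn9 were lost without any of the N2.3 tumours, Balb/c-1 A or Balb/c-1 C, Trim30d without N2.3 C, Balb/c-1 A, B or C, and Zc3hav1 without any single tumour but Balb/c-1 D. Over the same step the 6 genes had group means 1.48-fold (Ddx58) to 8.7-fold (Zbp1) higher in Balb/c-1. None of their ranges were apart, beside 22.2% of host genes whose ranges were apart in either direction.

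No list gene was called between the first and second Balb/c passage, though most had a positive fold change. In Balb/c-2 against Balb/c-1 limma, edgeR and DESeq2 each called 0 of 107 list genes (background 0.0094%), and 4 had an unadjusted p under 0.05. The list median was 0.44 against 0.04 for all host genes, and 91 of the 107 genes were higher in Balb/c-2. The ranges of all 6 genes overlapped, beside 9.87% of host genes whose ranges were apart in either direction. Their differences of mean log2(signal + 1) ran from 0.12 (Isg15) to 1.22 (Zbp1).

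Sequencing the 3 Balb/c-2 tumours again gave a measure of the spread between libraries of one tumour. In Balb/c-2 rep2 against Balb/c-2 the 3 tools again called 0 of 107 list genes (background 0.254%), 1 had an unadjusted p under 0.05 and the list median was -0.13 against -0.15 for all host genes. The fits took the first and repeat libraries of a tumour as independent samples, so the pairing was not used. Tumour A was the highest for all 6 genes in both sets of libraries. The ratio of the repeat to the first group mean was 0.98 for Ifi213, 0.82 for Zbp1 and Ifih1, 0.77 for Ddx58 and 0.64 for Ifit1. Isg15 stood out, with ratios of 0.33, 0.33 and 0.44 in tumours A, B and C, and was the only one of the 6 whose groups did not overlap, as was so for 10.7% of host genes in that direction. Its ratio of group means, 0.36, lay outside the 5th to 95th percentile of host genes, 0.51 to 1.41, with a median of 0.89. The repeat libraries and the CBA libraries share a style of library name that the other groups lack, and CBA was therefore compared with the repeat libraries. The last part of the name differs for repeat library B and is the same in the other repeat libraries and in CBA. The labels do not explain it.

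**Figure D3:**
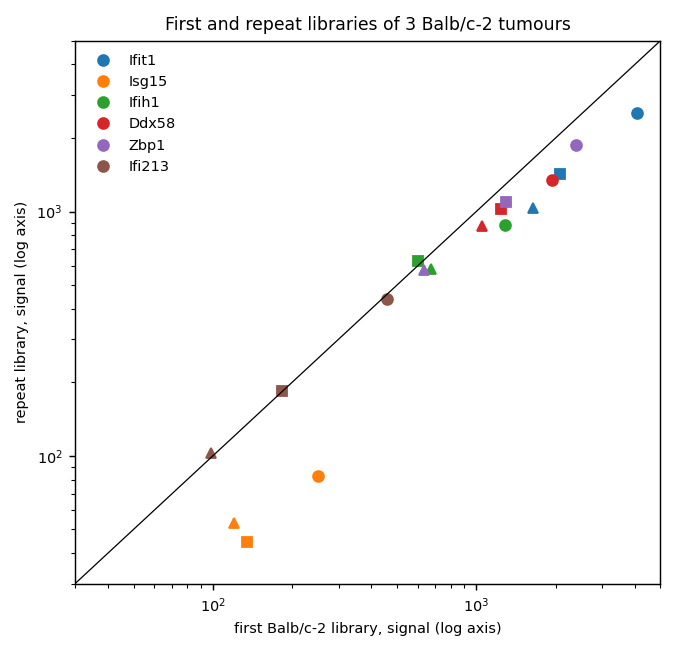
Signal of the 6 genes in the repeat library (vertical) against the first library (horizontal) of Balb/c-2 tumours A (circles), B (squares) and C (triangles), on log axes with the line of equality. Isg15 lies furthest below the line in all 3 tumours, with ratios of 0.33, 0.33 and 0.44, and Ifi213 lies on it.

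Of the 8 comparisons made, that of CBA with the Balb/c-2 repeat libraries had the largest ratio of means for each of the 6 genes. All 6 genes were lower in CBA, and for all 6 every CBA library was below every repeat library, as was so for 9.87% of host genes in that direction. The fold by which the mean was lower was 28.3 for Zbp1, 12.8 for both Isg15 and Ifi213, 9.58 for Ifit1, 6.18 for Ifih1 and 2.74 for Ddx58. The differences of mean log2(signal + 1) were -5.28 ± 1.19 (SE) for Zbp1, -4.10 ± 0.93 for Isg15, -3.63 ± 0.97 for Ifit1, -3.55 ± 1.302 for Ifi213, -2.98 ± 0.71 for Ifih1 and -1.63 ± 0.66 for Ddx58. All 3 CBA tumours lay within the range of the 16 YUMM1.7 to F2 libraries for every gene, and CBA B was the highest of them for all 6. The range of those 16 libraries was wide, for example 1.74 to 278 for Zbp1 and 12.1 to 956 for Ifit1. How many host genes have all CBA tumours within it was not counted. The leukocyte marker sum was 11.5 to 16.4 in CBA and 3.99 to 27.6 in the repeat libraries, with Cd3e at 0 in both groups. The fibroblast marker sum was 1538 to 2261 in CBA and 2268 to 3376 in the repeat libraries, but its genes did not move together. Mean signals were lower in CBA for Postn (69.5 against 609), Pdgfra (361 against 596) and Pdgfrb (1164 against 1479.9), and higher in CBA for Col1a1 (24.0 against 4.12), Col1a2 (57.0 against 26.5), Col3a1 (17.5 against 6.41) and Acta2 (168 against 59.0). Dcn was at a mean of 0.36 against 0.74, and Thy1 was at 0 in both groups. The endothelial sum was 159 to 170 in CBA and 106 to 118 in the repeat libraries, nearly all of it from Eng (155 against 106). The part of these markers in the result was not tested.

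Many other genes of the pathway fell as well. Of the 107 list genes 49 were called (45.8%), all lower in CBA, beside 15.5% of host genes called, of which 1239 were higher and 406 lower. The filter took the mean over all libraries, so a weak gene could pass it through a high signal in the reference group. Of the called genes, Tgtp1 (overall mean 5.075, 16.2 in the repeat libraries) and Phf11b (5.27 and 14.2) were close to its limit of 5. Without the filter 30 list genes were called. The list median was -1.995 and that of all host genes 0.36. The effectors had 32 of 50 lower, RNA sensors and adaptors 7 of 16, DNA sensors and adaptors 4 of 13, receptors and signalling 4 of 17, and antigen presentation 2 of 11. Rsad2, which encodes the antiviral enzyme viperin, fell by 5.04 on the log2 scale (SE 1.304, limma adjusted p = 0.0082), from 419.8 ± 265 to 14.6 ± 10.9 (SD, n = 3 each). The log2 fold changes were -4.73 ± 1.62 (SE, limma adjusted p = 0.042) for Oas2, -4.32 ± 1.10 (limma adjusted p = 0.0075) for Slfn2 and -4.26 ± 0.90 (limma adjusted p = 0.0019) for Ifi207, another Ifi200 gene. The smallest called falls were those of Zc3hav1 (-0.996), Trim25 (-1.31), a ubiquitin ligase linked to RIG-I signalling, Eif2ak2 (-1.31), which encodes the kinase PKR, and Ifi35 (-1.38). The signalling genes that fell included the transcription factors Stat2 (-1.94) and Irf9 (-2.35) and the receptor inhibitor Usp18 (-3.85), which were singled out after their values had been seen. The 17 receptor and signalling genes had a median of 0.13, with 10 of them positive.

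All 49 list genes called here were also called lower with TMM factors, which gave 51 calls. The count was 40 in edgeR and 56 in DESeq2, and every call in them was lower in CBA. Single libraries moved the count further: it was 9 without CBA A, 18 without CBA C, 14 without Balb/c-2 rep2 A, 30 without Balb/c-2 rep2 B and 32 without Balb/c-2 rep2 C, all lower, and 51 without CBA B. Ifi207 was called in all 6 of these fits. Rsad2, Slfn2 and Zc3hav1 were lost only without CBA A (adjusted p 0.062 each). Oas2 and Trim25 were called in 1 of the 6 fits, that without CBA B, and were not called by edgeR (adjusted p 0.054 and 0.066), nor Oas2 by DESeq2 (adjusted p = 0.076). Eif2ak2 was lost without CBA A, CBA C, Balb/c-2 rep2 A or Balb/c-2 rep2 C, and Ifi35 without CBA A, CBA C or Balb/c-2 rep2 A.

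**Figure D4:**
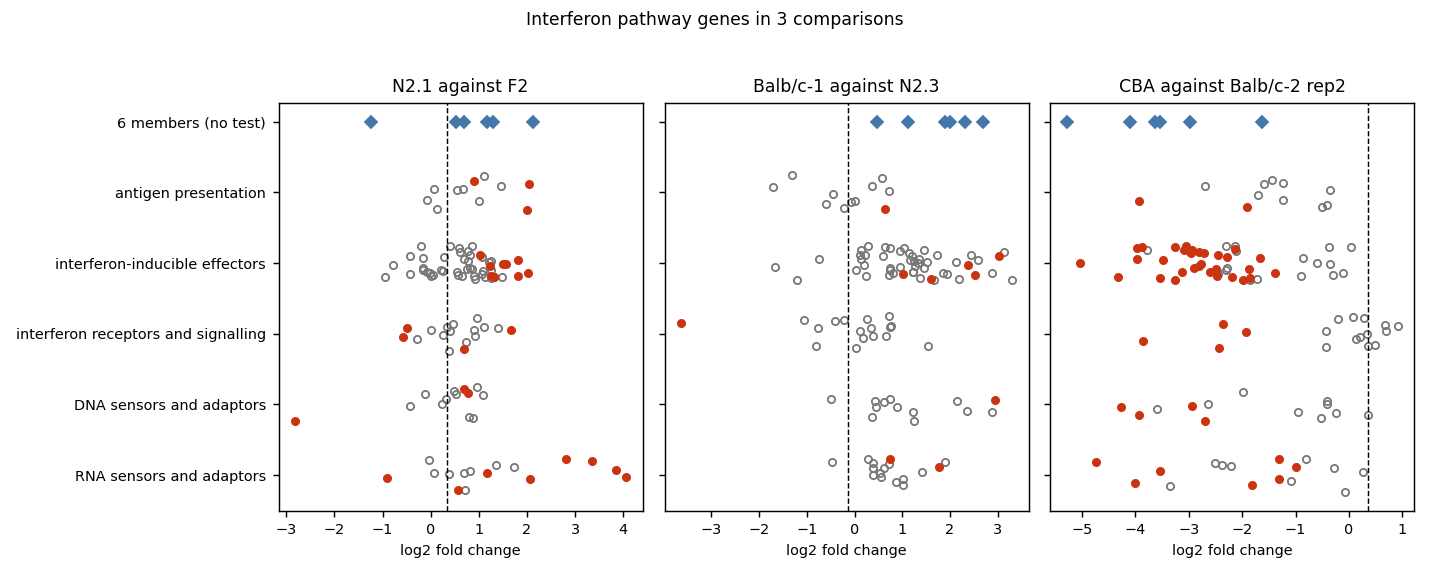
Log2 fold changes of interferon list genes by role in 3 comparisons, with called genes filled in red (limma, adjusted p under 0.05), other tested genes as open circles, the 6 selected genes as blue diamonds without a test, and the median of all host genes as a dashed line. In CBA against Balb/c-2 rep2 all 49 called genes lie to the left of 0, whereas in N2.1 against F2 23 lie to the right and 4 to the left.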

How the data were processed

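Each value of the deposited table is the signal of a repeat copy in a library. It equals a whole number of reads scaled by the authors with a library factor, since 100% of values are whole multiples of 1 read within 0.1. The submitters' processing notes list featureCounts 1.5.0-p3, HISAT2 2.0.5 and StringTie 1.3.3b with the build mm10, without their roles. Neither the repeat annotation nor how strand was used is given in the sources used here, and overlapping genes share copies.

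Signal was summed per gene, over the windows for the 6 genes and over copies centred in GENCODE M21 protein-coding genes for the others. Host genes with a mean signal of at least 5 were fitted with limma 3.58.1 (R 4.3.3) on log2(signal + 1), which understates changes of low genes, with 1 mean per group over all 11 groups. The fit was tested on simulated data. Their spread was a fixed setting and not that of these libraries, so this run says little about error rates here. Recovered reads went to edgeR 4.0.16 and DESeq2 1.42.0 as alternatives. The 6 genes and the lists were chosen with earlier results of these data known. Named list genes are the 4 highest and 4 lowest called log2 fold changes of a comparison, and named similar genes the 8 closest by Pearson correlation and the 2 closest to each of the 6 genes. Some of the genes these rules and lists hold are not reported here. The labels mention a first and a second sequencing batch without assigning libraries, so batch and group cannot be told apart. Letters mark the same tumours in Balb/c-2 and its repeat libraries, whose departures from group means had correlations across genes of 0.27 to 0.47 between equal letters and of -0.36 to -0.09 between unequal ones.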

Additional observations from a re-analysis of the deposited data

Results flagged for a closer look

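In 4 of 30 sets of a gene and a group with 4 or 5 tumours, 1 tumour stood far from the others. The 6 genes were selected on these values and tended to be high in the same tumours. The sets are therefore not independent, and the count carries no test. All 4 are high values. Ifit1 was at 561 in F0 A against 12.1 to 98.6 in the other F0 tumours, and at 613 in F1 B against 93.1 to 102 in the other F1 tumours. Zbp1 was at 104 in F1 B against 3.76 to 5.35 in the others. Isg15 was at 44.9 in F2 D against 0.91 to 9.48 in the others. F0 A, F1 B and F2 D were also the highest of their groups for the remaining genes of the 6.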

How the results depend on the processing

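Counts of called interferon list genes moved by over 1.5 times as follows, and the cause was not tested. F2 against F0 gave 1 call with a replicate block and 5 in DESeq2, and 0 to 6 when single libraries were left out, in place of 0. N2.1 against F2 gave 12 with TMM scaling, 10 with exon copies only, 9 in edgeR, 8 in DESeq2 and 11 to 33 with a library left out, in place of 27. N2.3 against N2.1 gave 5 with a pseudocount of 5 and 0 to 3 with a library left out, in place of 3. Balb/c-1 against N2.3 gave 3 to 12 with a library left out, in place of 10. CBA against Balb/c-2 rep2 gave 30 without a filter on low signal and 9 to 51 with a library left out, in place of 49, all of them lower.

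The replicate block gave 0, 1, 25, 2, 9, 0, 0 and 48 calls in the 8 comparisons in their order of description. It fitted a single effect per letter shared by all groups, with the numbered YUMM1.7 cultures recoded as letters. Letters mark the same tumours only in Balb/c-2 and its repeat libraries. The 0 calls of limma with the block there do not come from a paired test, and none was run. For the differences of the 6 selected genes, TMM scaling and exon copies only moved none of 48 values each by as much as the spread between tumours, and TMM turned 1 sign, that of Isg15 in N2.3 against N2.1, to 0.03. Leaving out a library turned 31 signs among 360 values, and the largest shift was 1.103 on the log2 scale. In groups this small, leaving out 1 library cannot move a difference by as much as the spread or turn a larger one. That none of the 360 values moved so far is therefore no measure of stability. Isg15 is limited by depth in the YUMM1.7, F0 and CBA libraries.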
